A study of Homo sapiens with 3 samples.

Results

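The genes described here are 9 genes of tumor invasion, MMP1, MMP7, MMP9, MMP10, MMP14, ADAM17, ADAM19, PLAU and PLAUR, taken by name from the 29689 gene symbols of the deposited RNAseq table. They were read in xenograft tumors of SUM-149, a human triple-negative breast cancer (TNBC) cell line, grown from cells mixed with Matrigel in the mammary fat pads of female Nu/Nu (nude) mice. There was 1 library each for mice given vehicle, the CDK2 inhibitor dinaciclib (CDK2i) and the EZH2 inhibitor EPZ6438 (EZH2i). By the labels both inhibitors were given for 10 days, and the vehicle label states no duration. All 3 libraries thus come from a single cell line in a host that lacks mature T cells, the labels give no dose, and whether a library held 1 tumor or several is not given in the sources used here. The study asked how inhibition of CDK2 or of EZH2 alters the transcriptome of these tumors. No group has a replicate, so no p-value was computed and every difference is between single libraries.

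Invasion proteases cut the matrix and the proteins at the cell surface. The MMPs are zinc-dependent enzymes made as inactive precursors. MMP1 is an interstitial collagenase, MMP7 (matrilysin) a small epithelial enzyme, MMP9 a gelatinase, MMP10 a stromelysin and MMP14 a membrane-anchored MMP that activates pro-MMP2. ADAM17 and ADAM19 are membrane-anchored metalloproteases, and ADAM17 (TACE) sheds TNFα and ligands of the EGF receptor. PLAU encodes urokinase, a serine protease that turns plasminogen into plasmin, and PLAUR encodes the urokinase receptor, which has no protease activity of its own. TIMP proteins inhibit the metalloproteases.

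The values are log2 FPKM, which is corrected for gene length and library size, so levels can be set side by side between genes. Depth, read from the steps that single fragments leave among low values, lay between 16.8 M fragments (vehicle) and 19.1 M (CDK2i). A gene is called past the thresholds when its levels in 2 libraries differed by a fold above 2 and the larger of them exceeded log2 FPKM 3, which is 8 FPKM. The spread given for a gene is the SD of the EZH2i minus CDK2i differences over the 200 genes nearest to it in mean level. It stands in for the missing replicate error, although drug effects enter it too. For 11109 expressed genes (average log2 FPKM over 1, never at the floor of −9) the median log2 change from vehicle was −0.11 with CDK2i and 0.19 with EZH2i.

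Where 3 values follow each other, they stand for vehicle, CDK2i and EZH2i, and pairs of changes for CDK2i and EZH2i. The libraries carried the epithelial markers of the labelled cell line. All 10 epithelial markers on the list were detected in each library, with KRT14 the highest and EPCAM at 66.3, 74.0 and 81.0 FPKM. The 10 genes summed to 7659, 16365 and 6760 FPKM, with KRT5, KRT6A, KRT14 and KRT17 past the thresholds and higher in CDK2i, and EGFR higher and KRT19 lower in EZH2i. The EGFR and KRT19 changes of 1.05 and −1.24 in EZH2i were 0.43 and −0.74 with the trend over GC content and transcript length removed (described with ADAM17), short of the fold threshold. Values for markers of cells that a tumor of this kind also holds were low. In a xenograft such cells come from the mouse host, while the values were made on the human genome. These values therefore do not measure how many such cells the tumors held. The 7 listed macrophage genes in the table summed to 11.5, 11.1 and 5.30 FPKM, and 1, 2 and 4 of them were at the floor. Nearly all of that sum was CD14 and ITGAM, while the pan-leukocyte gene PTPRC was at 0.0224 FPKM, 0.0196 FPKM and the floor. The 7 neutrophil genes summed to 3.75, 2.26 and 0.616 FPKM, with ELANE at the floor in both treated libraries. The 4 endothelial genes summed to 0.927, 0.751 and 0.734 FPKM. Of these lists, the 9 fibroblast genes alone were higher in sum in both treated libraries, at 25.3, 39.6 and 31.1 FPKM in the same order, and most of that sum was COL1A1, at 13.0, 25.1 and 16.1 FPKM. LUM passed the thresholds in CDK2i, with a log2 change of 1.02, while COL3A1 went the other way, at 3.88, 1.43 and 0.927 FPKM, and the part of these cells in the results below was not tested. In bulk tumor RNA, fewer cells of a type and less RNA per cell cannot be told apart.

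Invasion protease RNA was more abundant in both treated libraries. All 9 genes were higher in CDK2i than in vehicle, and 8 of 9 were higher in EZH2i, the exception being MMP7. Among the 11109 expressed genes, the share above vehicle was 41.9% with CDK2i and 61.5% with EZH2i. The FPKM of the 9 genes summed to 226 in vehicle, 506 in CDK2i and 347 in EZH2i. MMP7 alone made up 48.4%, 46.6% and 20.1% of this sum. Without MMP7 the sums were 117, 270.1 and 277 FPKM, so the treated libraries lay close to each other and above vehicle.

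Past the thresholds were 4 genes in CDK2i, MMP7, MMP9, ADAM19 and PLAU, all of them higher. In EZH2i 5 genes passed, MMP1, MMP9, ADAM17, ADAM19 and PLAU, again all higher. The genes able to pass, with 1 value of the pair above the minimum, were 7 of the 9 in CDK2i and 8 of the 9 in EZH2i. Of all 6632 genes able to pass in CDK2i, 3.27% were higher and 8.07% lower past the thresholds, 11.3% together, against 4 and 0 of the members. Of the 7414 able to pass in EZH2i, 8.93% were higher and 4.42% lower, 13.4% together, against 5 and 0 of the members. The median log2 change of the 9 genes was 1.11 in CDK2i and 1.34 in EZH2i. Both comparisons use the same vehicle library, so their directions are not independent of each other. The members were listed with earlier results of these data known, and MMP9, ADAM19 and PLAU also stand on the study's own list of genes changed in these libraries.

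**Figure D1:**
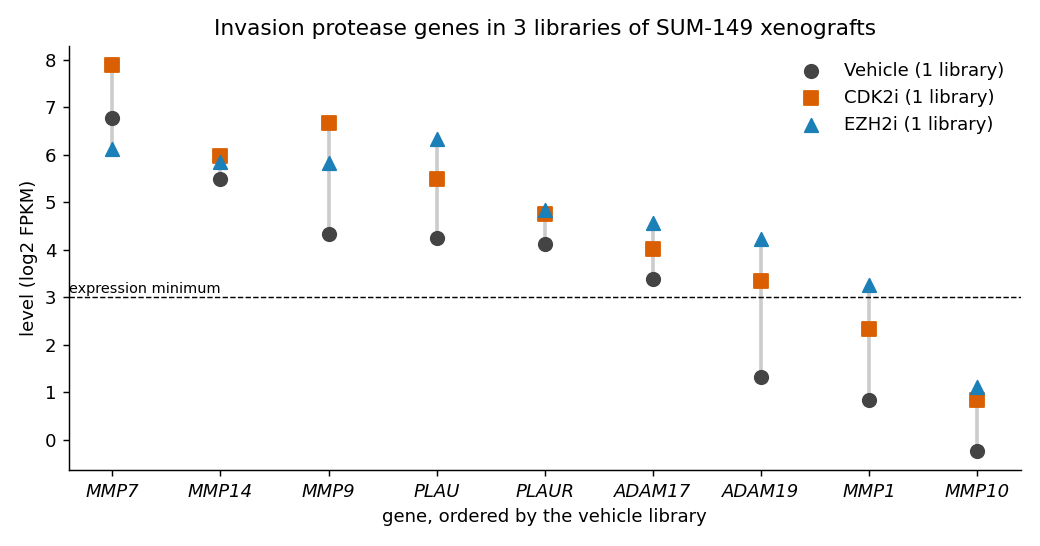
Level of each invasion protease gene in log2 FPKM (vertical axis) in the vehicle (circles), CDK2i (squares) and EZH2i (triangles) libraries, 1 library each, with genes ordered by their vehicle level and the expression minimum dashed. The vehicle circle is the lowest of the 3 symbols for every gene apart from MMP7, whose EZH2i symbol is lowest.

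**Figure D2:**
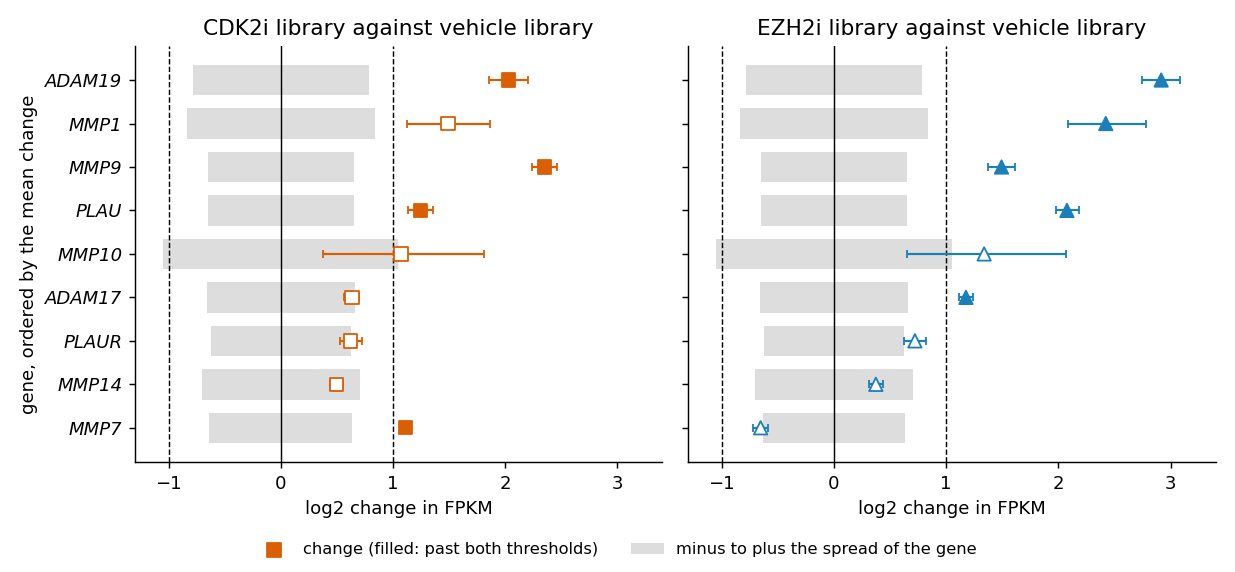
Log2 change in FPKM from vehicle (horizontal axis) for each gene in CDK2i (left) and EZH2i (right), with 95% counting intervals as whiskers, the spread of the gene as a grey bar around 0 and the fold threshold dashed. Filled symbols passed both thresholds, 4 genes in CDK2i and 5 in EZH2i, and MMP10 has the widest counting interval.

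Under vehicle the order of levels was MMP7, MMP14, MMP9, PLAU, PLAUR, ADAM17, ADAM19, MMP1 and MMP10. MMP7 stood above 98.0% of the genes detected in the vehicle library and MMP10 above 41.2%. The neighbors MMP9, PLAU and PLAUR were 0.08 and 0.13 apart on the log2 scale. The spread is a measure between libraries and does not apply to such steps, so the firmness of the order was not tested. ADAM17 lay 2.07 above ADAM19, the largest step in the order. In CDK2i MMP9 moved past MMP14 to rank 2. In EZH2i the order began with PLAU, MMP7, MMP14 and MMP9, with steps of 0.21, 0.26 and 0.04 between them.

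ADAM19 (chromosome 5, 156822542 to 157002783, minus strand, in GRCh37 as for all genes below) was at 2.48 FPKM under vehicle, 10.1 under CDK2i and 18.7 under EZH2i. Both treated libraries were thus above vehicle, and EZH2i was the highest. The ratios to vehicle were 4.08 and 7.55, log2 changes of 2.03 and 2.92 against a spread of 0.78. About 321 fragments stood behind the vehicle value, and the 95% counting interval of the log2 change ran from 1.85 to 2.21 in CDK2i and from 2.75 to 3.09 in EZH2i. These intervals cover counting error only, since PCR duplicates cannot be told from separate molecules in these values.

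MMP9 (chromosome 20, 44637547 to 44645200, plus strand) was at 20.0 FPKM under vehicle, 102 under CDK2i and 56.4 under EZH2i. The order of the treated libraries was the opposite of that for ADAM19, with CDK2i the highest. Its ratios to vehicle were 5.09 and 2.81, log2 changes of 2.35 and 1.49 beyond a spread of 0.65. No other member had a larger change in CDK2i. Neutrophils are a common source of this gelatinase. The human neutrophil genes were all too low to pass, host neutrophils would be mouse cells, and their part in the MMP9 values was not tested.

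PLAU (chromosome 10, 75668935 to 75677254, plus strand) was at 19.0 FPKM under vehicle, 45.0 under CDK2i and 80.1 under EZH2i. The log2 changes were 1.25 and 2.08, with a spread of 0.65. Its receptor gene PLAUR (chromosome 19, 44150247 to 44174699, minus strand) was at 17.4, 26.8 and 28.7 FPKM. These were log2 changes of 0.62 and 0.72 beside a spread of 0.62, below the fold threshold in both libraries. Ligand and receptor genes were thus nearly equal in vehicle, at 1.09 FPKM of PLAU for each FPKM of PLAUR, while the ratio was 1.68 in CDK2i and 2.79 in EZH2i. Exons of ADAM17, ADAM19, PLAU and MMP1 overlap those of IAH1, CYFIP2, C10orf55 and WTAPP1 on the opposite strand, and whether the counting used strand is not given in the sources used here. Of these 4 partners CYFIP2 was at 4.42, 5.39 and 2.68 FPKM, above vehicle in CDK2i and below it in EZH2i. IAH1, at 17.9, 14.7 and 15.9 FPKM, was below vehicle in both, while C10orf55 and WTAPP1 stayed below 1 FPKM. The part of these overlaps in the members' values was not tested. A ratio within a library does not depend on the scaling between libraries. The trend over GC content and transcript length (described with ADAM17) differs by gene, so it does not cancel in a ratio. With it removed the EZH2i changes were 2.07 for PLAU and 0.97 for PLAUR.

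MMP1, MMP7 and MMP10 lie in the MMP gene cluster of chromosome 11, where 8 MMP genes of the table span 435 kb, all on the minus strand. MMP7 (102391239 to 102401481) was at 109 FPKM under vehicle, 236 under CDK2i and 69.5 under EZH2i, so the treated libraries lay on opposite sides of vehicle. The sum of the epithelial markers had the same order, highest in CDK2i and lowest in EZH2i. Of the single markers, KRT5, KRT8 and KRT17 had this order and the others did not. KRT14 was at 2458, 6269 and 2541 FPKM, and EPCAM was highest in EZH2i. The part of these markers in the MMP7 values was not tested. The log2 change of MMP7 was 1.11 in CDK2i, past the thresholds, and −0.65 in EZH2i, about its spread of 0.64 and short of the fold threshold. MMP1 (102660132 to 102668891) was at 1.78, 5.01 and 9.56 FPKM. Its log2 changes were 1.49 and 2.42, with a spread of 0.84, and it reached the expression minimum in EZH2i alone. MMP10 (102641233 to 102651359) was at 0.847, 1.78 and 2.14 FPKM, which stood for about 25, 60 and 66 fragments. Its log2 changes of 1.07 and 1.34 were close to its spread of 1.05, its counting intervals ran from 0.38 to 1.81 and from 0.65 to 2.06, and the gene was too low to pass in any library.

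The other genes of the cluster were barely detected. MMP20, MMP8, MMP3 and MMP13 were below 1 FPKM in vehicle and CDK2i, and MMP27 was at the floor in vehicle and EZH2i. MMP13, a collagenase, was at 0.329, 0.442 and 1.66 FPKM, about 16, 24 and 82 fragments, so it was highest in EZH2i like MMP1. MMP3, a stromelysin, was at 0.177, 0.104 and 0.453 FPKM, or about 6, 4 and 15 fragments. In CDK2i the 3 members were thus the genes of the cluster with a log2 change above 1, and of these MMP7 alone was below vehicle in EZH2i.

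**Figure D3:**
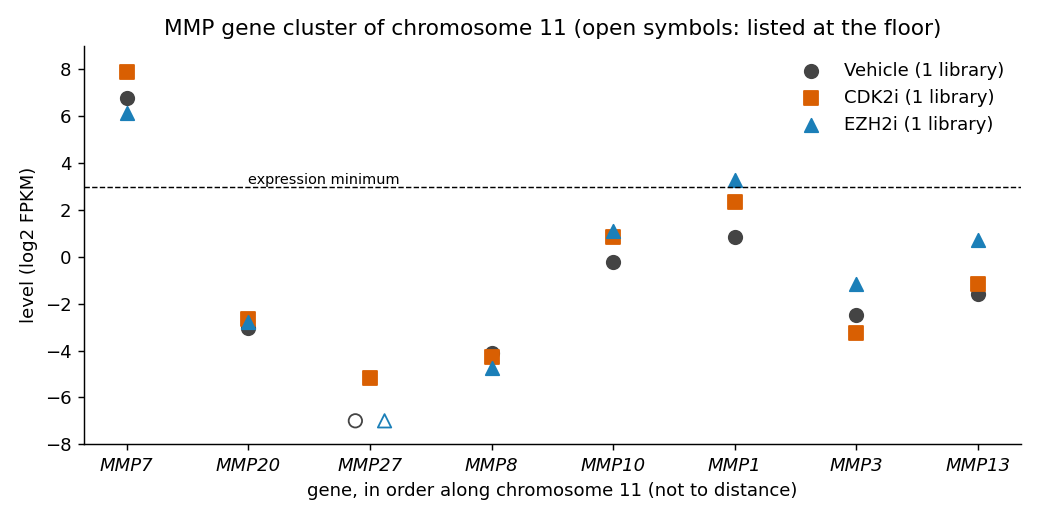
Level in log2 FPKM (vertical axis) of the 8 MMP genes of the chromosome 11 cluster, in their order along the chromosome, in the vehicle (circles), CDK2i (squares) and EZH2i (triangles) libraries. Open symbols at the foot, not to scale, stand for values at the floor (MMP27 in vehicle and EZH2i), and only MMP7 lies above the dashed expression minimum in all 3 libraries.

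The sequence around the start of a gene can be read beside these levels, because AP-1, a dimer of FOS and JUN proteins, is a known activator of several MMP and urokinase genes. RefSeq gave windows of 300 bases (250 before the start and 50 after it, build GRCh38.p14) for 7 of the 9 genes, 8 windows in all since PLAU has a pair of starts. MMP1 and MMP9 have none in the table used. The AP-1 motif TGANTCA, which reads the same on both strands apart from its middle base, was found in 3 of the 8 windows, those of MMP7, MMP10 and PLAUR, against 7.72% of 34943 windows of this length. The TATA motif TATAAA, searched on both strands, was in 2 of the 8, MMP7 and MMP10, against 11.6% of all windows, and no matches of the motifs overlapped. The 250 bases before the start are printed here 5′ to 3′ for the windows with an AP-1 match, with both motifs in capitals, followed by that of ADAM19, which had the largest mean change and holds neither motif.
MMP7, chr11:102530748-102530997, minus strand: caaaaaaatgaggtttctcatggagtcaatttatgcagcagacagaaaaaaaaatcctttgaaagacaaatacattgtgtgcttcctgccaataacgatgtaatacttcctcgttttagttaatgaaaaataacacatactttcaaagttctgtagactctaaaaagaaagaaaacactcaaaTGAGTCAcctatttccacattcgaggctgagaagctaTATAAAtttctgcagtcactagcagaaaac
MMP10, chr11:102780629-102780878, minus strand: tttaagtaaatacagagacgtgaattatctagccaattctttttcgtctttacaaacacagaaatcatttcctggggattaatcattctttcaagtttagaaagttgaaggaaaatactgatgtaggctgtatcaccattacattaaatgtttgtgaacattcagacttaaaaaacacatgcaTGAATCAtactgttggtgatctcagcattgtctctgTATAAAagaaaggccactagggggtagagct
PLAUR, chr19:43670170-43670419, minus strand: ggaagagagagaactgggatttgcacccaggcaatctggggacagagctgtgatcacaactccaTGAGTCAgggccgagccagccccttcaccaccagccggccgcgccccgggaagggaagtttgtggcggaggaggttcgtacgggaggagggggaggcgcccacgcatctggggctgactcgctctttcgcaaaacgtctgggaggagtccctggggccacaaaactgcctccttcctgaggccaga
ADAM19, chr5:157575776-157576025, minus strand: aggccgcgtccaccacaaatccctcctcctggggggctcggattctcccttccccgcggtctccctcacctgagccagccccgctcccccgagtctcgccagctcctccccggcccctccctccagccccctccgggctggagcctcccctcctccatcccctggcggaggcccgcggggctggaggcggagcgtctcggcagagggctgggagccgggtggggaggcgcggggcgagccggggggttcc
In MMP7 and in MMP10 the first base of the AP-1 match lay 67 bases before the start, and the TATA match began 30 and 31 bases before it. In PLAUR the AP-1 match began 186 bases before the start. The windows of MMP7 and MMP10 were 35.7% and 36.3% G and C, those of PLAUR and ADAM19 64.0% and 75.7%. The 3 genes with a match had log2 changes of 1.11, 1.07 and 0.62 in CDK2i and −0.65, 1.34 and 0.72 in EZH2i, while ADAM19 without one had 2.03 and 2.92. A match describes these letters only, sequence outside the windows was not searched, and binding was not measured.

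**Figure D4:**
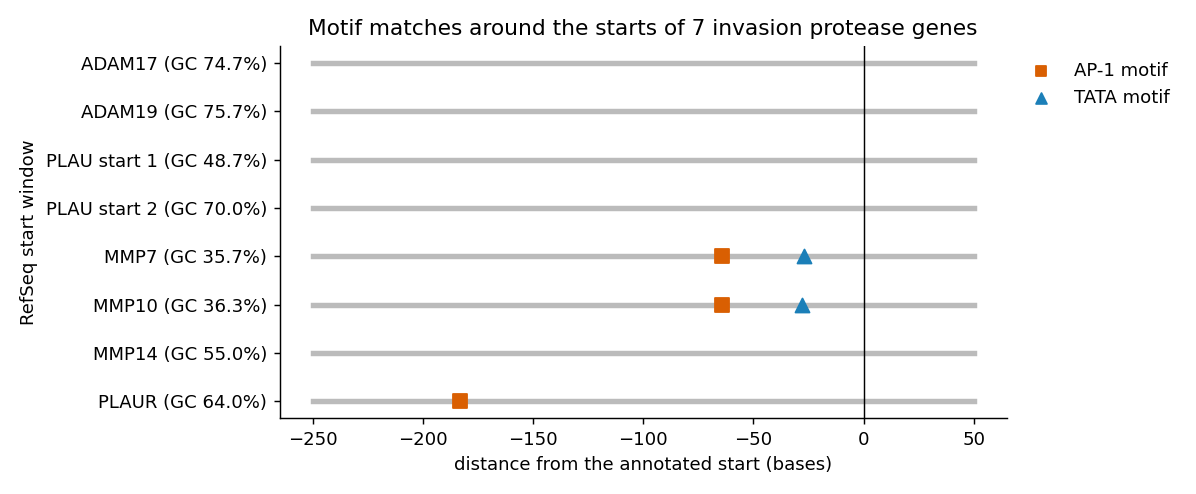
Motif matches in the 8 RefSeq start windows of 7 invasion protease genes, by distance from the annotated start in bases (horizontal axis), with AP-1 matches as squares, TATA matches as triangles and the share of G and C beside each name. MMP7 and MMP10 have the same arrangement, an AP-1 match 67 bases before the start and a TATA match 30 or 31 bases before it.

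MMP14 (chromosome 14, 23305769 to 23318250, plus strand) was at 44.7 FPKM under vehicle, 63.1 under CDK2i and 57.9 under EZH2i. Its log2 changes of 0.50 and 0.37 were the smallest of the 9 genes and lay within its spread of 0.70. ADAM17 (chromosome 2, 9628615 to 9696861, minus strand) was at 10.4, 16.1 and 23.5 FPKM. The log2 change was 0.63 in CDK2i, within its spread of 0.66, and 1.18 in EZH2i, past the thresholds. That call did not hold with every scaling. The EZH2i value of ADAM17 was 0.93 after centring on the median gene and 0.52 with the trend over GC content and length removed. Over 10149 expressed genes outside the ribosomal protein genes, the change in EZH2i ran with GC content (Spearman correlation across genes −0.582) and with transcript length (0.481), against 0.0361 and 0.0899 in CDK2i. Genes are not independent replicates. The ADAM17 transcript, with 41.0% G and C over 4776 bases, has the lowest GC content of the 9 genes, while that of MMP9 has the highest, 62.4%.

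With that trend removed, the changes in EZH2i were 2.61 for ADAM19, 2.15 for MMP1, 2.07 for PLAU, 1.82 for MMP9, 1.12 for MMP10, 0.97 for PLAUR, 0.43 for MMP14 and −0.73 for MMP7. MMP1 then ended just under the expression minimum. In CDK2i the same step left every gene at or above its deposited change, from 0.62 for MMP14 to 2.44 for MMP9. Under the deposited values and the 6 alternatives of pseudocount, scaling and trend, MMP9, ADAM19 and PLAU passed in all 7 cases in both comparisons, and all 9 genes kept their direction against vehicle. MMP7 in CDK2i ran from 0.96 to 1.38 and passed in 6 of 7.

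**Figure D5:**
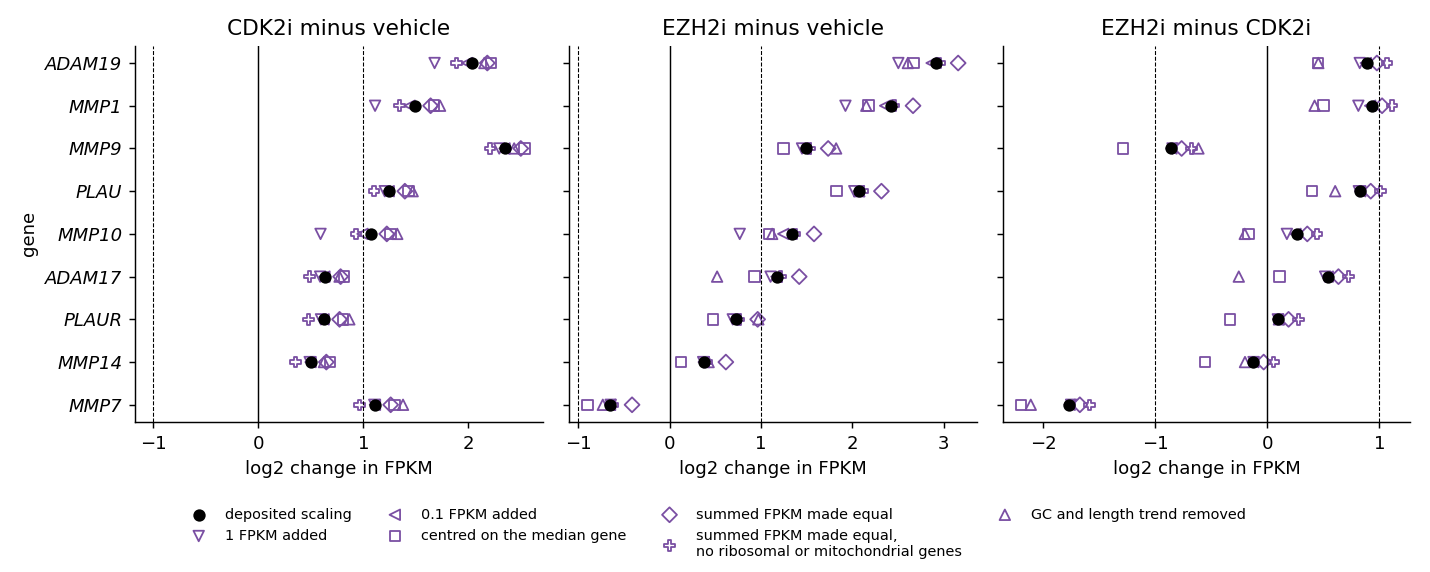
Log2 change in FPKM (horizontal axis) of each gene for CDK2i minus vehicle, EZH2i minus vehicle and EZH2i minus CDK2i, with the deposited values filled and the 6 alternatives open. Changes from vehicle keep their side of 0 for every gene, whereas ADAM17, MMP10, MMP14 and PLAUR have symbols on both sides of 0 between the treated libraries.

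Between the treated libraries themselves, a comparison that leaves the vehicle library out, MMP7 was the only member past the thresholds. Its log2 difference, EZH2i minus CDK2i, was −1.76, a ratio of 0.294, and it stayed past the thresholds in all 7 cases, from −2.20 to −1.58. Of 7394 genes able to pass, 6.53% were lower and 17.5% higher in EZH2i than in CDK2i, with 24.1% past the thresholds in either direction. In all, 6 of the 9 genes were higher in EZH2i than in CDK2i, as were 66.9% of the expressed genes. MMP9 was also lower in EZH2i, with a log2 difference of −0.86, beyond its spread of 0.65. This was −1.29 after centring on the median gene and −0.61, within the spread, with the trend over GC content and length removed. MMP1, ADAM19 and PLAU were higher in EZH2i by 0.93, 0.89 and 0.83, beyond their spreads but short of the fold threshold. These differences were 0.50, 0.45 and 0.40 after centring on the median gene and 0.42, 0.46 and 0.61 with the trend removed, within their spreads. They were 1.11, 1.07 and 1.01, past the thresholds, with sums equalized over genes other than those of ribosomal proteins and the mitochondrial genome. With equal FPKM sums over all genes MMP1 also passed, at 1.02. ADAM17 differed by 0.54, MMP10 by 0.27, MMP14 by −0.12 and PLAUR by 0.10, all within their spreads. Which of these 4 was higher in which library depended on the scaling.

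None of the 5 metalloprotease inhibitor genes passed the thresholds, although only TIMP1 was high enough to do so. TIMP1 was at 122 FPKM under vehicle, 130 under CDK2i and 141 under EZH2i, log2 changes of 0.10 and 0.21. Set against TIMP1 in the same library, MMP9 stood at 0.165, 0.785 and 0.400 FPKM per FPKM, and MMP7 at 0.899, 1.81 and 0.493. With the trend over GC content and length removed, the EZH2i changes were 0.66 for TIMP1, 1.82 for MMP9 and −0.73 for MMP7. MMP14 stood at 7.70, 8.24 and 9.93 per FPKM of TIMP2, which was at 5.81, 7.65 and 5.83 FPKM. TIMP3, an inhibitor of ADAM17, was at 0.324, 0.760 and 0.112 FPKM, a level at which its spread was 1.64. SPINT1, SPINT2 and SERPINB5, inhibitors of serine proteases or their relatives, all missed the thresholds, with log2 changes between 0.41 and 0.66 in CDK2i and between −0.44 and 0.74 in EZH2i.

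Among other genes of the plasminogen system, SERPINE2, which encodes a serine protease inhibitor, passed in EZH2i, at 29.9, 33.5 and 68.9 FPKM (log2 changes of 0.17 and 1.21). With the trend over GC content and length removed, it ended below the fold threshold in EZH2i, at 0.89. The plasminogen-binding proteins encoded by ENO1, ANXA2 and S100A10 had log2 changes between 0.12 and 0.48 in CDK2i and between −0.17 and 0.06 in EZH2i. The gene of plasminogen itself, PLG, was at the floor in both treated libraries, and PLAT, which encodes tissue plasminogen activator, changed by −0.16 and 0.33.

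Of 16 other MMP genes in the table none passed against vehicle, with 4 able to pass in CDK2i and 4 in EZH2i. Between the treated libraries MMP15, a membrane-anchored MMP at 8.97, 11.2 and 5.45 FPKM, was past the thresholds and lower in EZH2i. Its log2 difference was −1.04, and −0.77 with the trend over GC content and length removed, short of the fold threshold. MMP2, the gelatinase that MMP14 activates, was the highest of the other MMP genes at 31.8, 57.5 and 29.3 FPKM, log2 changes of 0.86 and −0.11. Over the 14 of these genes without a value at the floor CDK2i had a median change of 0.29 and EZH2i of −0.10. Of 14 other ADAM genes, none passed in CDK2i, and ADAM8 and ADAM9 did in EZH2i, with log2 changes of 1.04 and 1.19. Less the median change of the expressed genes, ADAM8 was at 0.85 and ADAM9 at 0.99, both short of the fold threshold. With the trend removed ADAM8 was at 1.28, above that threshold, and ADAM9 at 0.51. ADAM8 was at 9.05, 17.3 and 18.6 FPKM and ADAM9 at 10.1, 16.8 and 23.0. ADAM10, the other main sheddase, was at 5.09, 5.25 and 8.58 FPKM, and ADAM15, the highest of the group, at 50.2, 69.8 and 41.8. None of the 18 ADAMTS genes reached the expression minimum, and the highest, ADAMTS1, was at 4.46, 2.49 and 3.94 FPKM.

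The maturation of membrane-anchored metalloproteases such as MMP14, ADAM17 and ADAM19 depends on proprotein convertases and, for ADAM17, on the iRhom proteins encoded by RHBDF1 and RHBDF2. None of the 9 genes of this list passed the thresholds. FURIN was at 93.9, 101 and 103 FPKM, RHBDF2 at 17.1, 23.7 and 25.0, and ST14, which encodes the membrane serine protease matriptase, at 82.5, 106 and 66.2. Of 5 ligands shed by ADAM17, 3 passed in CDK2i (HBEGF, TGFA and TNF) and 3 in EZH2i (HBEGF, TGFA and EREG), all of them higher. HBEGF was at 9.66, 63.0 and 31.8 FPKM, and TGFA at 6.16, 13.9 and 21.4. TNF, at 1.67, 17.0 and 5.38 FPKM, had a log2 change of 1.69 in EZH2i but stayed below the expression minimum there. EREG, at 19.7, 27.7 and 60.7 FPKM, had a log2 change of 1.62 in EZH2i, and of 0.88 with the trend removed. The remaining ligand, AREG, had log2 changes of 0.24 and 0.36.

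Genes of AP-1 subunits differed between the treated libraries. In CDK2i 6 of 7 were past the thresholds and higher, against 3.27% of all genes able to pass. FOS was at 20.5 FPKM in vehicle and 511 in CDK2i, and JUN at 35.4 and 254. The JUND change of 1.11 was 0.89 with the trend over GC content and length removed, short of the fold threshold. In EZH2i FOS was at 37.3 and JUN at 33.5 FPKM, and FOSL1 was the only subunit gene to pass. FOSL1 was at 31.2, 75.2 and 84.4 FPKM, log2 changes of 1.27 and 1.44, and it was the one subunit gene past the thresholds in both libraries, as were MMP9, ADAM19 and PLAU among the proteases. Many AP-1 genes are immediate early genes, and the part of AP-1 in the values of the members was not tested. In the deposited values MMP7 and MMP9 were higher in CDK2i than in EZH2i by more than their spreads. MMP1, ADAM19 and PLAU went the other way, higher in EZH2i by 0.93, 0.89 and 0.83, also more than their spreads. With the trend removed the differences of MMP9, MMP1, ADAM19 and PLAU were within their spreads.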

How the data were processed

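RNA was extracted from SUM-149 xenograft tumors with the RNeasy Mini Kit and sequenced by a service provider, 1 library per treatment. The authors deposited 1 log2 FPKM value for each gene symbol and library, made on hg19 (GRCh37). The submitters' processing notes name CASAVA and STAR, and the counting tool is not given in the sources used here, nor is a step that sets mouse reads apart. The labels name EPZ6438, whereas the study's text on SUM-149 xenografts also names GSK343, as the EZH2 inhibitor. Genes listed at −9 were taken as having an FPKM of 0. Changes were taken as differences of log2 FPKM without a pseudocount. The thresholds are the fold and expression limits of the study's methods, and its limma p-value was not repeated, since 1 library per group allows no test.

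Depth was read from 400, 452 and 399 genes lying on 1 fragment, with exon lengths of GENCODE 44 on GRCh37. Fragment numbers are approximate, as the authors' gene lengths are not known, and 95% counting intervals are exact (Poisson for levels, binomial for changes). Of the table's genes 20191 were matched to the annotation, 1478 of them by a RefSeq synonym, and 92.1% of the expressed genes had GC content and length. The trend over both was fitted as a polynomial of degree 3. The members and lists were chosen with earlier results of these data known. Named were the 9 members, genes of the other lists past the thresholds or highest in their list, the MMP cluster of chromosome 11, and for members past the thresholds in both comparisons the 2 genes nearest in both changes. Genes named beyond this, such as TIMP2, TIMP3, COL3A1, MMP15, PLAT, ADAM10, FURIN, RHBDF2, AREG, the plasminogen-binding proteins and the markers PTPRC, ELANE and EPCAM, were chosen after their values were seen. One item of the gene lists is not reported here. The calculations were tested on simulated data. Python 3.11.15, numpy 2.4.6, pandas 2.3.3, scipy 1.17.1 and matplotlib 3.10.9 were used.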

Additional observations from a re-analysis of the deposited data

How the results depend on the processing

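No paired analysis was possible because each group has 1 library and no test was run. With the fold limit at 3, 2 genes passed in CDK2i and 3 in EZH2i in place of 4 and 5. With it at 1.5, 5 genes passed between EZH2i and CDK2i in place of 1. An expression minimum of log2 FPKM 5 left 2 genes in EZH2i, and removal of the GC and length trend left 3. Between EZH2i and CDK2i, 2 genes passed after centring on the median gene, 2 with equal FPKM sums, and 4 with sums equalized over genes other than those of ribosomal proteins and the mitochondrial genome. The other alternatives left these counts within 1.5 times, and the median change of the 9 genes ran from 0.96 to 1.38 in CDK2i and from 1.09 to 1.58 in EZH2i. Over the whole table the balance of calls moved with the scaling. From 217 genes higher and 535 lower in CDK2i it went to 365 and 352 after centring, 328 and 383 with equal sums, 152 and 712 with those genes kept out of equal sums, and 287 and 307 with the trend removed. In EZH2i it went from 662 and 328 to 269 and 576, 1441 and 180, 751 and 302, and 143 and 238. With 1 library per group the differences have no replicate check, and depth limits MMP10 most.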

Other observations

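Among 5 ETS genes, whose products act with AP-1 on protease genes, none passed the thresholds in CDK2i and ETS1 passed in EZH2i, at 4.23 FPKM under vehicle, 6.04 under CDK2i and 10.8 under EZH2i. With the GC and length trend removed its log2 change in EZH2i was 0.74 in place of 1.35. ETV4, the highest of the 5, was at 19.8, 23.7 and 23.8 FPKM.

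The genes nearest to the 3 proteases that passed in both libraries, by distance in both log2 changes among 7572 genes and over only 3 libraries, are given here as values. Nearest to MMP9 were the clone-named RP11-567M16.1 (2.34 in CDK2i and 1.59 in EZH2i) and the chemokine gene CCL20 (2.44 and 1.57). SEMA7A, a semaphorin gene (1.94 and 2.95), and IL36G (1.71 and 3.02) were nearest to ADAM19. LAMA3, a chain of laminin-332 (1.26 and 2.16), and GNB4, a G protein subunit gene (at a distance of 0.0929), were nearest to PLAU. Such a likeness says nothing of shared control.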
